A study of Mus musculus with 2 samples.

Results

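T cells are lymphocytes that carry a T cell receptor, and 95 of them were found among 7603 liver leukocytes that had been sorted for a myeloid integrin. They were 50 of 4157 kept cell barcodes in RES and 45 of 3446 in Ctrl. A barcode counted as a T cell if it held at least 3 unique transcript molecules (UMIs) of Cd3e, Cd3d and Trac together, at least 1 of them from Cd3e or Cd3d, no Ncr1 or Cd79a UMI and at most 2 Lyz2 UMIs. Cd3e and Cd3d encode chains of the CD3 signalling complex and Trac the constant part of the receptor's alpha chain, while Ncr1 marks natural killer (NK) cells, Cd79a B cells and Lyz2 myeloid cells. These 6 genes chose the cells, so their levels are description only. Barcodes were kept beforehand if they had at least 200 detected genes and at most 10% of their UMIs from mitochondrial genes.

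The 2 groups were RES, C57BL/6 mice in which liver fibrosis had resolved, and Ctrl, uninjured C57BL/6 mice. Each group was 1 droplet library, made from the pooled cells of 5 mice. Liver mononuclear cells from a Histopaque gradient were sorted for the leukocyte marker CD45 and for CD11b, the integrin alpha chain encoded by Itgam, and 10x 3′ libraries were prepared. The labels used here do not give the agent that caused the fibrosis, the time allowed for resolution, or the age of the mice. With 1 library per group no difference between RES and Ctrl could be tested. The 95% intervals given with values cover counting error only, not variation between mice or preparations. Those of ratios count each UMI as independent, so they leave out variation between cells too.

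T cells recognise antigens, mostly peptides on MHC molecules, through a receptor that signals through CD3. The receptor is made of alpha and beta, or of gamma and delta, chains. Most T cells carry a coreceptor: CD8 on cytotoxic cells, which read MHC class I, or CD4 on helper and regulatory cells, which read MHC class II. The liver is known for T cells that stay in the tissue and for unconventional T cells that share surface receptors with NK cells. CD11b is mainly a marker of monocytes, macrophages, neutrophils and NK cells, and subsets of activated T cells can carry it.

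The T cells held 308899 UMIs in RES and 295608 in Ctrl. Their median depth was 5449.5 UMIs in RES (1835 to 15665) and 4993 in Ctrl (1053 to 30537), with a median of 1906.5 detected genes in RES and 1842 in Ctrl. Ribosomal protein genes took 31.9% of T cell UMIs in RES and 31.2% in Ctrl, and mitochondrial genes took 3.31% in RES and 3.14% in Ctrl. The 2 libraries shared 56 cell barcode sequences, none of them a T cell. T cells made up 1.20% of kept barcodes in RES (exact interval 0.894 to 1.58%) and 1.31% in Ctrl (0.954 to 1.74%). The difference of -0.103 percentage points had a Newcombe interval of -0.627 to 0.399, which includes 0.

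Few barcodes lay at the edge of the gate. The sum of Cd3e, Cd3d and Trac had a median of 11 UMIs per T cell in RES (3 to 35) and 10 in Ctrl (3 to 48). Just inside, at a sum of 3 or 4, were 3 RES and 7 Ctrl barcodes, and 3 RES and 3 Ctrl ones had a UMI of the T cell transcription factor Bcl11b, while 0 RES and 4 Ctrl ones had a UMI of the NK and myeloid adaptor Tyrobp. Just outside, 5 RES and 6 Ctrl barcodes failed on the sum alone, and 0 RES and 2 Ctrl ones had a Bcl11b UMI, while 5 RES and 4 Ctrl ones had a Tyrobp UMI. Cells that failed on another gene alone were few: 2 RES and 7 Ctrl barcodes for Ncr1, 1 RES and 1 Ctrl for Cd79a, and 5 RES and 8 Ctrl for Lyz2.

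Cd3g, Trbc2 and Bcl11b, which are outside the gate, bore out the name in both libraries. Cd3g, a further CD3 chain, stood at 913 CPM (UMIs of the gene per 1000000 UMIs of the T cells summed) in RES T cells and 707 CPM in Ctrl T cells, with a UMI in 47 of 50 RES and 41 of 45 Ctrl cells. Trbc2, the constant part of the receptor's beta chain, was seen in 49 of 50 RES and 43 of 45 Ctrl T cells. Bcl11b stood at 369 CPM in RES T cells and 352 CPM in Ctrl T cells. The nearest other population of the sort, cells with an Ncr1 UMI and none of Cd3e, Cd3d, Trac or Cd79a (1216 in RES and 1273 in Ctrl, called Ncr1-gated cells here), held 10.2 CPM of Bcl11b in RES and 16.5 CPM in Ctrl. Cd3g was at 4.57 CPM in the Ncr1-gated cells of RES and at 123 CPM in those of Ctrl, where 66 cells had 3 or more Cd3g UMIs. The genes Trbc1 and Trbc2 are near-identical over most of their length (96.2% over the first 500 bases) but not in the last 200 bases (53%). The beta chain constant genes were also detected in Ncr1-gated cells, Trbc2 in 30.1% of those of RES and 37.9% of those of Ctrl. Trbc1 had a UMI in 61.5% of Ncr1-gated cells in RES and 60.4% in Ctrl. In T cells its share was 62% in RES and 53.3% in Ctrl, so the share of cells with Trbc1 did not mark T cells. By level, Trbc1 stood at 984 CPM in RES T cells and 673 CPM in Ctrl T cells. Among Ncr1-gated cells it stood at 311 CPM in RES and 350 CPM in Ctrl.

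Markers of other cell types were mostly low but not absent, and they differed between the libraries. The 7 NK cell markers summed to 285 CPM in RES T cells and 1154 CPM in Ctrl T cells, against 9340 CPM in the Ncr1-gated cells of RES and 9321 CPM in those of Ctrl. Of these 7, Ncr1, which the gate fixes, Klra8 and Klra4 were at 0 in RES T cells, and Ncr1 alone was at 0 in Ctrl T cells. The 12 myeloid markers summed to 1816 CPM in RES and 2652 CPM in Ctrl T cells, against 31330 CPM in RES and 35430 CPM in Ctrl among cells with more than 2 Lyz2 UMIs. A single cell held 384 of the 561 myeloid marker UMIs of RES T cells and another 305 of the 784 of Ctrl T cells, and 1 RES and 2 Ctrl T cells held 10 or more UMIs of the MHC class II gene H2-Aa. The 6 dendritic cell markers summed to 107 CPM in RES T cells and 88.0 CPM in Ctrl T cells. In cells with more than 2 Lyz2 UMIs they summed to 106 CPM in RES and 252 CPM in Ctrl. A single cell held 31 of their 33 UMIs in RES T cells, and another 11 of 26 in Ctrl T cells. The part of these barcodes in the results was not tested, except where values without them are given. The 4 neutrophil and 2 platelet markers had no UMI in T cells, while the 6 hepatocyte markers had 1 UMI in RES and 4 in Ctrl T cells. Of the 7 B cell markers, 4 had no UMI in T cells, among them Cd79a, which the gate fixes. Together the 7 had 67 UMIs in 24 RES T cells (217 CPM) and 53 UMIs in 25 Ctrl T cells (179 CPM). In Ncr1-gated cells they summed to 117 CPM in RES and 112 CPM in Ctrl. In cells with 3 or more Cd79a UMIs they summed to 44676 CPM in RES and 49150 CPM in Ctrl.

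The transcript of the sort marker itself was scarce in T cells. Itgam had 8 UMIs in 7 of 50 RES T cells and 14 UMIs in 7 of 45 Ctrl T cells, which is 14.0% of cells in RES and 15.6% in Ctrl. After each cell was thinned to 1000 UMIs, so that depth no longer differed, no T cell of either library kept an Itgam UMI, which by the exact interval allows a share of up to 7.11% in RES and 7.87% in Ctrl. Thinning is a random draw: at 500 UMIs the share was 0% in RES and 2.22% in Ctrl, and at 1500 UMIs it was 6% in RES and 4.55% in Ctrl. The thinned share was 23.9% in RES and 20.2% in Ctrl among Ncr1-gated cells, and 35.2% in RES and 20.6% in Ctrl among cells with more than 2 Lyz2 UMIs. Among cells with 3 or more Cd79a UMIs it was 5.26% in RES and 4.76% in Ctrl, and unthinned it was 19.3% in RES and 12.7% in Ctrl. Their median depths before thinning were 4365 UMIs in RES and 4900 in Ctrl, close to those of the T cells. The exact intervals of T cells and of these B-lineage barcodes overlapped after thinning, so at this depth the Itgam share of T cells cannot be told from theirs. Itgb2, the beta chain that pairs with CD11b and with other alpha chains, had a UMI in 35 of 50 RES and 26 of 45 Ctrl T cells, and Ptprc, which encodes CD45, in 49 RES and 45 Ctrl T cells.

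**Figure D1:**
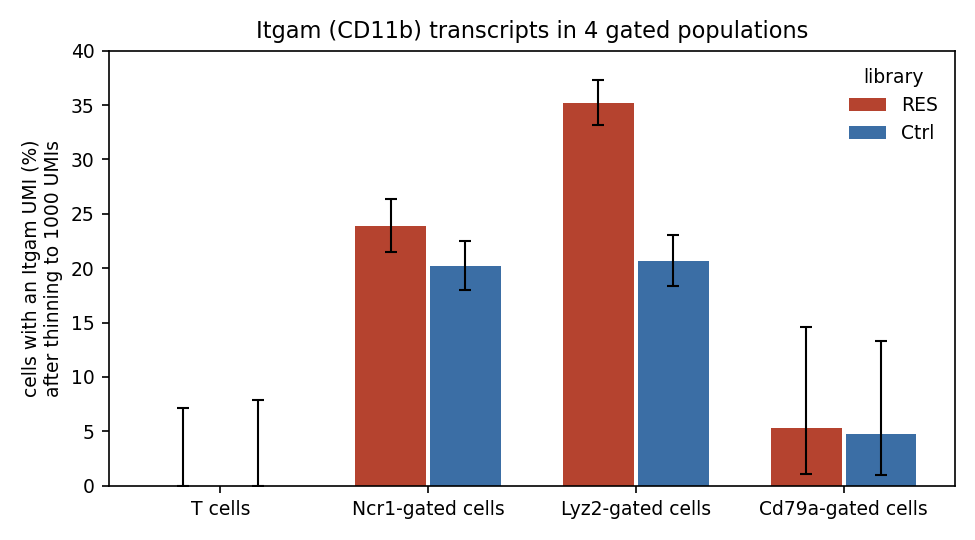
Bars show the share of cells with an Itgam UMI after thinning to 1000 UMIs in 4 gated populations, with RES left of Ctrl and exact 95% intervals as error bars. The T cells of both libraries stand at 0%, while Ncr1-gated cells stand at 23.9% in RES and 20.2% in Ctrl.

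Set against the Ncr1-gated cells of their own library, T cells were marked by coreceptor genes and by the T cell signalling apparatus. Genes needed 20 UMIs over both populations together in each library, so a gene could pass through either population alone. Of 9131 such genes, 130 (1.42%) were at least 2-fold higher in T cells in both libraries and 240 (2.63%) at least 2-fold lower, together 4.05%. The ratios had 10 CPM added to each value. The 12 highest were Cd8b1, Ifi27l2a, Cd8a, Ly6a, Bcl11b, Cd5, Cd6, Cd4, Dapl1, Il7r, Themis and Ctla4. Most of these are known T cell genes: Cd5 and Cd6 encode receptors that tune antigen receptor signals, Themis a signalling protein of T cell development, Il7r the receptor for the survival cytokine interleukin 7, and Ctla4 an inhibitory receptor. Cd5 stood at 136 CPM in RES T cells and 101 CPM in Ctrl T cells and had no UMI in the Ncr1-gated cells of either library. Il7r stood at 728 CPM in RES T cells and 369 CPM in Ctrl T cells, against 50.3 CPM in the Ncr1-gated cells of RES and 33.6 CPM in those of Ctrl.

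Ifi27l2a and Ly6a, both interferon-induced, were in that group without being T cell markers. Ifi27l2a stood at 424 CPM in RES T cells and 1086 CPM in Ctrl T cells, against 10.2 CPM in RES and 19.2 CPM in Ctrl among Ncr1-gated cells. Ly6a, which encodes the surface protein Sca-1, stood at 185 CPM in RES T cells and 227 CPM in Ctrl T cells, against 3.17 CPM in RES and 7.10 CPM in Ctrl among Ncr1-gated cells. Cells with more than 2 Lyz2 UMIs held 706 CPM of Ifi27l2a in RES and 1351 CPM in Ctrl.

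The genes lowest in T cells were NK receptor and cytotoxic genes. The gates of these populations are opposed on Ncr1 and on Cd3e, Cd3d and Trac. This direction therefore follows in part from how the cells were chosen and is description only. Klra8, Klra9, Klra4, Klra3, Klri2, Klrb1c and Klrb1a encode lectin-type NK receptors, and 12 of the 14 listed NK receptors were at least 2-fold lower in T cells in both libraries. Klra8 had no UMI in RES T cells and stood at 10.1 CPM in Ctrl T cells, against 821 CPM in RES and 805 CPM in Ctrl among Ncr1-gated cells. Prf1, which encodes the pore-forming protein perforin, stood at 84.2 CPM in RES T cells and 74.4 CPM in Ctrl T cells, against 992 CPM in RES and 1068 CPM in Ctrl among Ncr1-gated cells. Gzma, a granule protease, stood at 1127 CPM in RES T cells and 1691 CPM in Ctrl T cells, against 11188 CPM in RES and 11860 CPM in Ctrl among Ncr1-gated cells. The other named genes below Ncr1-gated cells were Cma1, Khdc1a, Irf8 and Styk1. Of the 18 listed signalling genes of the T cell receptor pathway, 7 were at least 2-fold higher in T cells and 1, Txk, was lower. Lck, the kinase that starts receptor signalling, was not among them, at 320 CPM in RES and 318 CPM in Ctrl T cells and at 297 CPM in RES and 275 CPM in Ctrl Ncr1-gated cells.

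**Figure D2:**
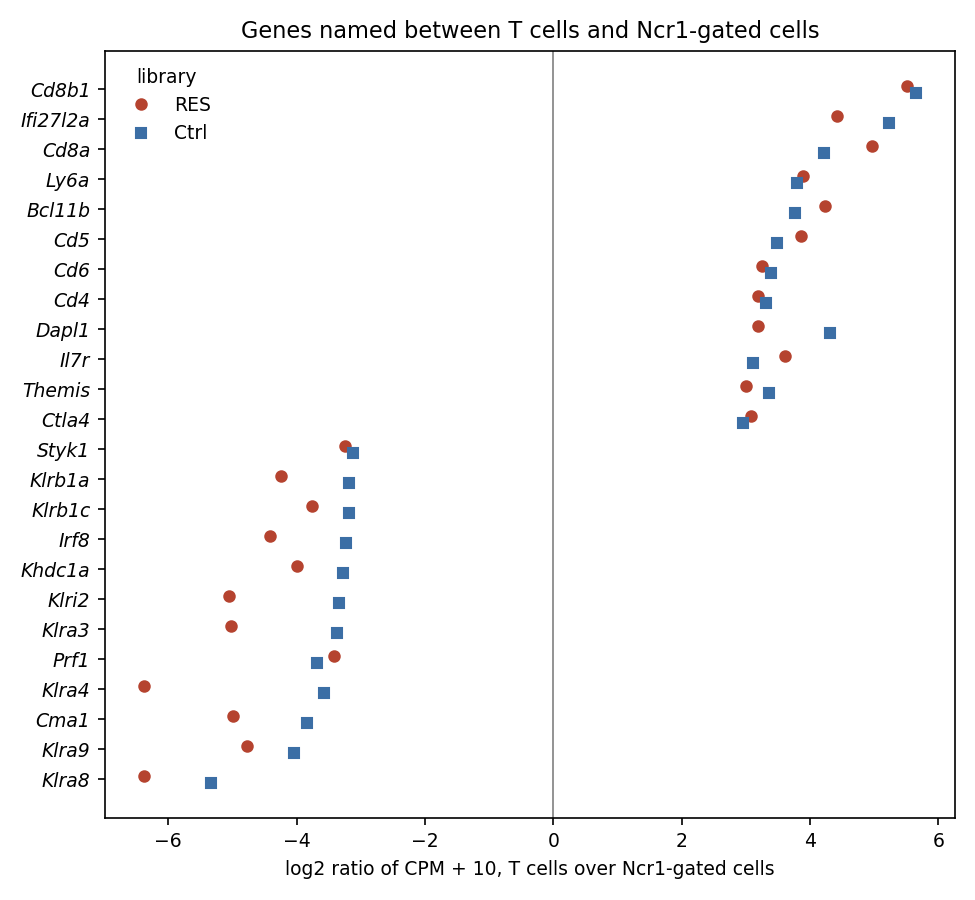
Each row is a gene named between T cells and Ncr1-gated cells, and the points give the log2 ratio of CPM with 10 CPM added, RES as circles and Ctrl as squares. Both libraries fall on the same side of 0 for every gene shown, as the naming rule requires, and for genes with no T cell UMI, such as Klra8 in RES, the value depends on the added 10 CPM.

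By coreceptor, T cells were of several kinds. Cd8a and Cd8b1 encode the chains of CD8. A Cd8a or Cd8b1 UMI without a Cd4 UMI was found in 21 of 50 RES T cells (42.0%, exact interval 28.2 to 56.8%) and in 21 of 45 Ctrl T cells (46.7%, 31.7 to 62.1%). A Cd4 UMI without Cd8a or Cd8b1 was found in 10 RES cells (20%, 10.0 to 33.7%) and 12 Ctrl cells (26.7%, 14.6 to 41.9%). Both were found in 4 RES cells and 1 Ctrl cell, and neither in 15 RES and 11 Ctrl cells. The intervals of the 2 libraries overlapped for both gates.

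These classes depend on depth, since 1 UMI decides them. After thinning to 1000 UMIs the Cd8 gate held 40% of RES and 31.1% of Ctrl T cells, the Cd4 gate 4% of RES and 11.1% of Ctrl T cells, and neither gate 54% of RES and 57.8% of Ctrl T cells. No order of RES and Ctrl was read from these shares. As background, Cd8a had no UMI in the Ncr1-gated cells of either library, and Cd4 had one in 0.0822% of them in RES and 0.157% in Ctrl, at median depths of 4138 UMIs in RES and 3497 in Ctrl. Among cells with 3 or more Cd79a UMIs, Cd8a was found in 1.75% in RES and 0% in Ctrl, and Cd4 in 1.75% in RES and 9.52% in Ctrl, where its share of T cells was 28.9%. Both CD8 chains were seen together in 21 RES and 14 Ctrl T cells. Cd8a without Cd8b1, the form seen when CD8 is built from alpha chains alone, was found in 1 RES and 5 Ctrl T cells, and 4 of those 5 also had a Tyrobp UMI.

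Regulatory T cells, which restrain other immune cells, are defined by the transcription factor Foxp3. Foxp3 UMIs occurred in 6 of 50 RES and 5 of 45 Ctrl T cells, against 0.164% of Ncr1-gated cells in RES and 0.0786% in Ctrl, and after thinning in 4% of RES and 4.44% of Ctrl T cells. Every Foxp3 cell of both libraries also had a UMI of Ikzf2, which encodes the transcription factor Helios, and 5 of 6 RES and 5 of 5 Ctrl cells had one of Ctla4. None was in the Cd8 gate, where Ikzf2 had a UMI in 3 of 21 RES and 3 of 21 Ctrl cells. Ctla4 had one there in 4 RES cells and 1 Ctrl cell. In the Cd4 gate Ctla4 had one in 5 of 10 RES and 4 of 12 Ctrl cells. Il1rl1, the receptor for the alarm cytokine interleukin 33, was found in 7 RES and 3 Ctrl T cells, and 5 of those RES and 3 of those Ctrl cells also had Foxp3. Within the Cd4 gate, Ikzf2 stood at 1024 CPM in RES (69 UMIs in 6 of 10 cells) and 540 CPM in Ctrl (38 UMIs in 6 of 12 cells). Il1rl1 stood there at 297 CPM in RES and 128 CPM in Ctrl, from 20 UMIs in RES and 9 in Ctrl. The Cd4 gate of RES held a barcode of 15620 UMIs with 96 H2-Aa UMIs and 1 Foxp3 UMI. That of Ctrl held a barcode with 71 H2-Aa UMIs and no Foxp3 UMI. The part of these barcodes in the values was not tested.

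Trdc and Zbtb16, genes of gamma delta and innate-like T cells, were each seen in a minority of T cells. Trdc, the delta chain constant gene, had a UMI in 4 RES and 6 Ctrl T cells, 3 RES and 5 Ctrl ones without a Trac UMI, but 22.1% of Ncr1-gated cells in RES and 20.7% in Ctrl also had one. Trdc together with a gamma chain constant gene was found in 3 RES and 3 Ctrl T cells, none of them with Trac. Reads of Tcrg-C1 and Tcrg-C2 may be split between these copies, which are 94.5% identical in their last 200 bases. Tyrobp accompanied Trdc in 1 of 4 RES and 6 of 6 Ctrl cells. Cd163l1, a scavenger receptor of gamma delta T cells, was found in 2 RES T cells and no Ctrl T cell, and both had a UMI of the chemokine receptor Cxcr6. Zbtb16, the transcription factor PLZF of innate-like lymphocytes, had a UMI in 5 RES and 2 Ctrl T cells, none of which had a CD8 chain. The invariant NKT segments Trav11 and Traj18 had no UMI in any T cell. Any Trav gene was seen in only 5 of 50 RES and 6 of 45 Ctrl T cells, and no Traj gene had a UMI. At such detection these zeros do not show whether invariant NKT cells were present. Segments of the beta chain's variable part were seen in 15 RES and 8 Ctrl T cells, from 9 different genes in RES and 7 in Ctrl, with no cell showing 2.

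T cells in neither coreceptor gate are defined by a missing UMI, and their share grew on thinning in both libraries. The genes given for them here were picked after their values were seen, and they describe these 2 libraries only. Il7r was found in 13 of these 15 RES cells and 4 of these 11 Ctrl cells, with 116 UMIs in RES and 8 in Ctrl. Gata3, a transcription factor of helper and innate-like T cells, was found in 9 RES and 1 Ctrl cell, and Zbtb16 in 5 RES and 0 Ctrl cells. Gzma had 4 UMIs in 3 RES cells and 196 UMIs in 7 Ctrl cells, but 3 Ctrl cells held 77, 63 and 45 of these, each with a Tyrobp UMI. Tyrobp had 9 UMIs in 4 RES cells and 37 UMIs in 5 Ctrl cells of this class, and its part in the Gzma difference was not tested. Klrb1c, the NK receptor NK1.1, was found in 5 RES and 6 Ctrl cells.

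RES and Ctrl T cells were compared over 1617 genes with at least 50 UMIs in the T cells of both libraries together. A gene was called higher or lower if its CPM differed at least 2-fold with 10 CPM added to each value. In RES, 14 genes (0.866%) were higher and 31 (1.92%) lower, together 2.78%, and the median log2 ratio of all 1617 was -0.06. The ratios printed for single genes are the plain ones with exact conditional intervals. The chemokines Ccl5 and Ccl4, the inhibitor Tnfaip3 and the homing receptor Ccr7 were among the higher genes, and proliferation genes and the adaptors Tyrobp and Fcer1g among the lower.

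**Figure D3:**
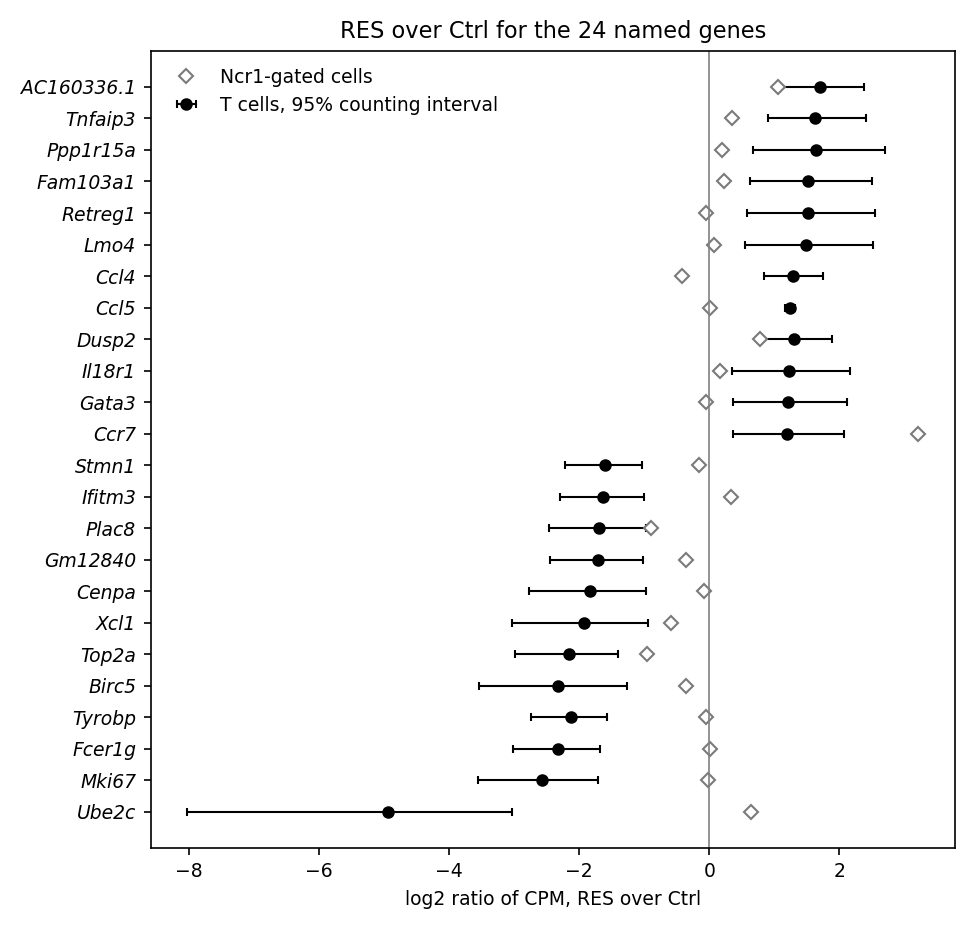
Filled points give the plain log2 ratio of CPM, RES over Ctrl, in T cells with its 95% counting interval, for the 12 highest and 12 lowest genes, and open diamonds give the same ratio in Ncr1-gated cells. The diamond of Ccl5 lies at 0.01 while its T cell point lies at 1.24, and the diamond of Ccr7 rests on levels of 3.87 CPM in RES and 0.418 CPM in Ctrl.

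Ccl5, a chemokine that draws T cells and monocytes, was the most counted of the named genes. It had 4123 UMIs in 31 of 50 RES T cells, or 13347 CPM, and 1668 UMIs in 33 of 45 Ctrl T cells, or 5643 CPM. The log2 ratio was 1.24 (1.16 to 1.33), and the ratio within Ncr1-gated cells was 0.01, from 16203 CPM in RES and 16144 CPM in Ctrl. The difference lay in the cells with most Ccl5: 15 RES and 6 Ctrl T cells had 100 or more UMIs, while 24 RES and 22 Ctrl T cells had 10 or more. The median over all T cells was 6 UMIs in RES and 8 in Ctrl, the opposite order to the sums. Within the Cd8 gate, where 18 of 21 RES and 13 of 21 Ctrl cells had a Ccl5 UMI, the median was 106 UMIs per cell in RES (0 to 419) and 27 in Ctrl (0 to 247), or 23748 CPM in RES and 6199 CPM in Ctrl.

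The Cd4 gate went the other way. Ccl5 had 7 UMIs in 3 of 10 RES cells and 313 UMIs in 10 of 12 Ctrl cells, so that the log2 ratio there was -5.29 with 10 CPM added. Of those 313 UMIs, 174 came from a single Ctrl cell. Cells with 10 or more Ccl5 UMIs numbered 0 in the Cd4 gate of RES and 6 in that of Ctrl. In the Cd8 gate there were 18 in RES and 11 in Ctrl. Among cells with both coreceptors, 3 of 4 in RES had 10 or more Ccl5 UMIs, and the 1 such cell of Ctrl had 1 UMI.

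**Figure D4:**
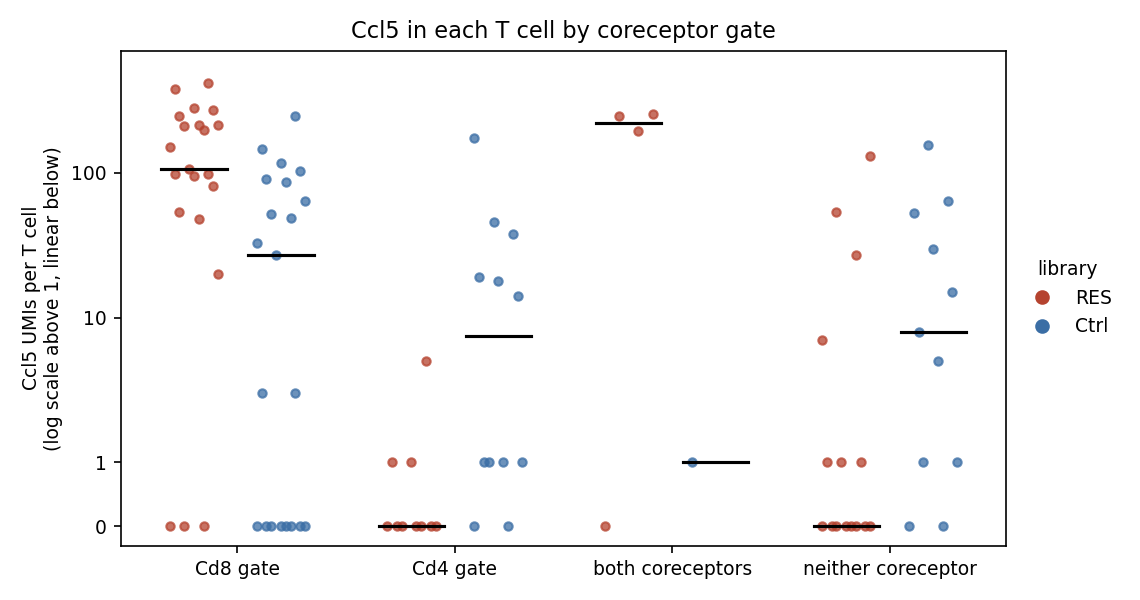
Each point is a T cell placed by its coreceptor gate and its Ccl5 UMIs, with RES left of Ctrl and a black line at the median. In the Cd8 gate the medians are 106 UMIs in RES and 27 in Ctrl, and in the Cd4 gate they are 0 in RES and 7.5 in Ctrl.

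Ccl4, a chemokine of activated cytotoxic cells, stood at 495 CPM in RES T cells (153 UMIs in 18 cells) and 203 CPM in Ctrl T cells (60 UMIs in 11 cells), a log2 ratio of 1.29 (0.85 to 1.74). A single RES cell held 57 of those UMIs. In the Cd8 gate it stood at 944 CPM in RES and 97.0 CPM in Ctrl, and in neither coreceptor gate at 82.4 CPM in RES and 949 CPM in Ctrl. The call was lost with the mean of per-cell CPM, where the ratio with 10 CPM added was 0.44, and without cells with a Mki67 or Top2a UMI, where it was 0.82. Of 10 well counted genes of the cytotoxic effector list, Ccl4 and Ccl5 were higher in RES and none lower, with a median of 0.25. The granule proteases did not share that direction. Gzma stood at 1127 CPM in RES and 1691 CPM in Ctrl (log2 ratio -0.59, -0.79 to -0.39), and a single Ctrl cell held 193 of its 500 UMIs there. Gzmb stood at 243 CPM in RES and 426 CPM in Ctrl (-0.81, -1.24 to -0.39), and neither protease reached 2-fold. Nkg7, a granule membrane protein, stood at 1347 CPM in RES and 1187 CPM in Ctrl.

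Of the other named higher genes, Tnfaip3 encodes A20, an inhibitor of NF-kappa-B signalling, and stood at 220 CPM in RES T cells (34 cells) and 71.0 CPM in Ctrl T cells (14 cells), a log2 ratio of 1.63 (0.91 to 2.41). In Ncr1-gated cells that ratio was 0.34. Without cells with a Mki67 or Top2a UMI, the T cell ratio of Tnfaip3 with 10 CPM added was 0.998, just short of 2-fold. Dusp2, a phosphatase that switches off MAP kinases, stood at 317 CPM in RES and 129 CPM in Ctrl (1.30, 0.75 to 1.88), and its Ncr1-gated ratio was 0.79. Ppp1r15a, which reverses the stress block of translation, stood at 126 CPM in RES and 40.6 CPM in Ctrl (1.64, 0.67 to 2.71). With 50 CPM added its ratio was 0.96, short of 2-fold. Of 14 well counted immediate early genes, which respond within minutes to receptor signals or to cell handling, Btg1 alone was higher and none lower, and the median was 0.40. Without cells with a Mki67 or Top2a UMI that median was -0.0013, over 13 genes. Btg1, an antiproliferative gene, stood at 1405 CPM in RES and 687 CPM in Ctrl (1.03, 0.79 to 1.28). All 3 well counted glucocorticoid-induced genes, Dusp1, Tsc22d3 and Txnip, had positive ratios, with a median of 0.71 and none past 2-fold. The 8 listed genes summed to 858 CPM in RES T cells and 558 CPM in Ctrl T cells. That direction was not particular to T cells. Among Ncr1-gated cells the sums were 923 CPM in RES and 651 CPM in Ctrl. Among cells with more than 2 Lyz2 UMIs they were 1036 CPM in RES and 739 CPM in Ctrl. Among cells with 3 or more Cd79a UMIs they were 821 CPM in RES and 554 CPM in Ctrl.

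Gata3 stood at 133 CPM in RES T cells (20 cells) and 57.5 CPM in Ctrl T cells (10 cells), a log2 ratio of 1.21 (0.36 to 2.12), and was the 1 higher gene among 4 well counted helper genes. Il18r1, a chain of the interleukin 18 receptor, stood at 126 CPM in RES and 54.1 CPM in Ctrl (1.22, 0.35 to 2.16). Ccr7, the receptor that guides naive and central memory T cells to lymph nodes, stood at 139 CPM in RES (13 cells) and 60.9 CPM in Ctrl (9 cells), a ratio of 1.19 (0.37 to 2.07). With 50 CPM added, Gata3 (0.77), Il18r1 (0.76) and Ccr7 (0.77) fell short of 2-fold. Without cells with a Mki67 or Top2a UMI, the ratio of Ccr7 with 10 CPM added was 0.71. Of 9 well counted genes of naive and recirculating T cells, Ccr7 was higher and Dapl1 lower, with a median of 0.21. Dapl1 stood at 80.9 CPM in RES and 189 CPM in Ctrl (-1.23, -1.97 to -0.52), and 21 of its 56 UMIs in Ctrl came from 1 cell. Tcf7, a transcription factor of naive and memory cells, stood at 220 CPM in RES and 200 CPM in Ctrl.

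Ccr7 and the tissue homing receptor Cxcr6 were seldom seen in the same cell. Cxcr6 was found in 21 RES and 18 Ctrl T cells and Ccr7 in 13 RES and 9 Ctrl T cells, and 1 RES and 1 Ctrl cell had both. Among cells with 10 or more Ccl5 UMIs, 2 of 24 in RES and 0 of 22 in Ctrl had Ccr7. None of the 5 well counted tissue residency genes passed 2-fold. Cxcr6 stood at 240 CPM in RES and 159 CPM in Ctrl (0.59, 0.04 to 1.15), and the early residency and activation marker Cd69 at 291 CPM in RES and 206 CPM in Ctrl (0.50, 0.01 to 0.99).

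AC160336.1, a lincRNA on chromosome 14 at positions 44544055 to 44637201 of GRCm38, had the highest ratio. It stood at 285 CPM in RES T cells (35 cells) and 88.0 CPM in Ctrl T cells (16 cells), a log2 ratio of 1.70 (1.05 to 2.39). It was also higher outside T cells, at 181 CPM in RES and 87.1 CPM in Ctrl among Ncr1-gated cells and at 265 CPM in RES and 97.5 CPM in Ctrl among cells with more than 2 Lyz2 UMIs. Fam103a1, a partner of the mRNA cap methyltransferase, stood at 136 CPM in RES and 47.4 CPM in Ctrl (1.52, 0.62 to 2.51). Retreg1, a receptor for autophagy of the endoplasmic reticulum, stood at 126 CPM in RES and 44.0 CPM in Ctrl (1.52, 0.59 to 2.55), with a ratio of -0.05 in Ncr1-gated cells. Lmo4, a transcriptional cofactor, stood at 123 CPM in RES and 44.0 CPM in Ctrl, but 23 of its 38 RES UMIs came from 1 cell, and without the highest cell of each library its ratio with 10 CPM added was 0.39. With 50 CPM added, Fam103a1 (0.93), Retreg1 (0.91) and Lmo4 (0.88) fell short of 2-fold.

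Proliferation genes led the lower side. Of 8 well counted cell cycle genes, 5 were lower in RES, none higher, and the median was -1.48. Mki67, the proliferation marker Ki-67, had 13 UMIs in 3 RES T cells, or 42.1 CPM, and 74 UMIs in 8 Ctrl T cells, or 250 CPM, a log2 ratio of -2.57 (-3.55 to -1.71). Top2a, which untangles replicated DNA, had 18 UMIs in 4 RES cells and 77 in 8 Ctrl cells (-2.16, -2.99 to -1.41). Hmgb2, a chromatin protein of dividing cells, stood at 664 CPM in RES and 1803 CPM in Ctrl (-1.44, -1.68 to -1.21), and Birc5, Stmn1 and the centromere histone Cenpa were also lower.

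These UMIs sat in few cells. A Mki67 or Top2a UMI was found in 6 of 50 RES T cells (12%, exact interval 4.53 to 24.3%) and 11 of 45 Ctrl T cells (24.4%, 12.9 to 39.5%), and these intervals overlapped. After thinning, the shares were 4% in RES and 13.3% in Ctrl. The deepest T cell of each library was a cycling cell of the Cd8 gate: the RES cell of 15665 UMIs had 9 Mki67 and 15 Top2a UMIs, and the Ctrl cell of 30537 UMIs had 44 Mki67 and 50 Top2a UMIs. That Ctrl cell also held 52 of the 59 Ctrl UMIs of Ube2c, a mitotic ubiquitin enzyme, and 205 of the 533 of Hmgb2. Without the deepest cell of each library Mki67, Top2a and Birc5 fell short of 50 UMIs, and the median of the 5 list genes left was -1.07. Over all genes tested, 19 of 1451 were then lower, in place of 31 of 1617. Without the cells with a Mki67 or Top2a UMI, 12 of 1055 genes were lower.

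**Figure D5:**
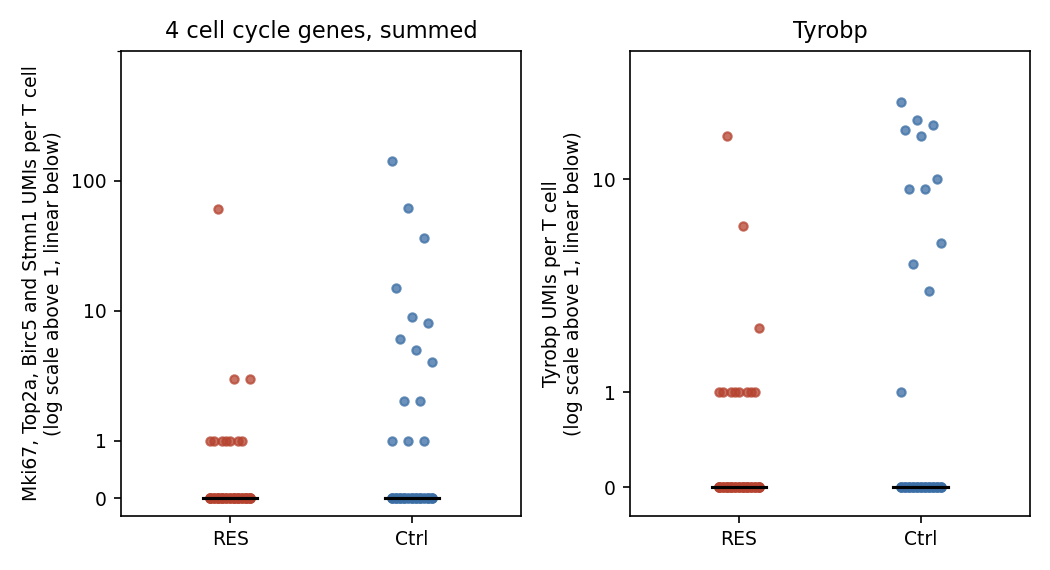
Each point is a T cell, with RES left of Ctrl and a black line at the median of 0. The left panel sums the UMIs of Mki67, Top2a, Birc5 and Stmn1, where the highest cell reaches 61 in RES and 141 in Ctrl, and the right panel gives Tyrobp, which 2 RES and 11 Ctrl T cells carry at 3 UMIs or more.

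Signalling adaptors that NK and myeloid cells share were also lower. Tyrobp, the adaptor DAP12, had 32 UMIs in 11 RES T cells (104 CPM) and 134 UMIs in 12 Ctrl T cells (453 CPM), a log2 ratio of -2.13 (-2.73 to -1.56). Fcer1g, a related adaptor, had 24 UMIs in 16 RES cells (77.7 CPM) and 115 UMIs in 13 Ctrl cells (389 CPM), a ratio of -2.32 (-3.02 to -1.68). About as many cells were positive in each library, but RES cells mostly held 1 Tyrobp UMI while 11 Ctrl cells held 3 or more. In Ncr1-gated cells Tyrobp stood at 3116 CPM in RES and 3241 CPM in Ctrl, and Fcer1g at 2470 CPM in RES and 2446 CPM in Ctrl. In cells with more than 2 Lyz2 UMIs Tyrobp stood at 2731 CPM in RES and 3023 CPM in Ctrl, and Fcer1g at 2385 CPM in RES and 2535 CPM in Ctrl. All 3 well counted NK markers, with Klre1 as the third, were lower in RES, with a median of -2.03. All 5 well counted myeloid markers had negative ratios, with a median of -0.52 and 1 of them, Ifitm3, past 2-fold.

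The Ctrl T cells with 3 or more Tyrobp UMIs were mixed. Of these 11, 9 also had a UMI of Klrb1c and 2 had 10 or more H2-Aa UMIs. In RES there were 2 such T cells, 1 with Klrb1c and 1 with 10 or more H2-Aa UMIs. Whether these barcodes are T cells with NK-type receptors or droplets holding more than 1 cell was not tested. When all T cells with a Tyrobp UMI were left out, 39 RES and 33 Ctrl cells remained and Ccl5 had a log2 ratio of 1.55 with 10 CPM added, against 1.24 over all T cells. Xcl1, a chemokine of NK and innate-like T cells, stood at 35.6 CPM in RES and 135 CPM in Ctrl (-1.93, -3.04 to -0.94). Plac8, also in the innate-like list, stood at 71.2 CPM in RES and 230 CPM in Ctrl (-1.69, -2.46 to -0.98). These 2 were the lower genes among 4 well counted innate-like genes, whose median was -1.28.

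Among the interferon-induced genes a single one was called. Of 14 well counted members, Ifi27l2a was lower in RES, none was higher, and the median was -0.17. Ifi27l2a stood at 424 CPM in RES (22 cells) and 1086 CPM in Ctrl (27 cells), a log2 ratio of -1.36 (-1.66 to -1.06). A single Ctrl cell held 98 of the Ctrl UMIs, while no RES cell held more than 23. In Ncr1-gated cells the ratio of Ifi27l2a was -0.91, from 10.2 CPM in RES and 19.2 CPM in Ctrl. Cells with 10 or more Ifi27l2a UMIs numbered 3 in RES, 2 of them with Foxp3, and 10 in Ctrl, 3 of them with Foxp3. Of the named lower genes, Ifitm3, an antiviral membrane protein also found in myeloid cells, stood at 93.9 CPM in RES and 291 CPM in Ctrl, with 19 of 29 RES and 44 of 86 Ctrl UMIs in 1 cell each. Without the barcodes of highest doublet score its ratio with 10 CPM added turned to 0.10. Gm12840, a lincRNA, stood at 74.5 CPM in RES and 244 CPM in Ctrl (-1.71, -2.45 to -1.02).

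The receptor complex genes outside the gate and the signalling genes showed no called difference. Cd3e, Cd3d and Trac, as gate genes, could not be called. None of the other 4 listed receptor complex genes passed 2-fold, and their median was 0.25. None of 17 well counted signalling genes passed 2-fold, and their median was 0.01. Lat, the adaptor that links the receptor to downstream enzymes, stood at 369 CPM in RES and 261 CPM in Ctrl (0.50, 0.07 to 0.94). Neither did any of 13 genes of MHC class I presentation, with a median of 0.15, any of 8 glycolysis genes, with a median of -0.37, or any of 6 heat shock genes, with a median of 0.09. B2m, the shared subunit of MHC class I, stood at 2622 CPM in RES and 1945 CPM in Ctrl (0.43, 0.27 to 0.59). Among 11 well counted genes of the S100, annexin and galectin list, Lgals1 and Anxa2 were lower in RES and none higher, with a median of -0.13. Lgals1, which encodes galectin-1, stood at 673 CPM in RES and 1472 CPM in Ctrl (-1.13, -1.37 to -0.89). Of 15 well counted homing genes, Ccr7 was higher and none lower, and the integrin chain genes Itgal and Itgb7 had ratios of 0.09 (-0.39 to 0.57) and 0.06 (-0.44 to 0.56).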

How the data were processed

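For each barcode and gene the authors deposited a whole-number UMI count, not normalized. Cell Ranger 3.1.0 is named per the file headers, and bcl2fastq, Cell Ranger and the mm10 build per the submitters' processing notes. Which annotation served for counting is not given in the sources used here.

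T cells were gated on raw counts. No doublet caller was used in the reported values; leaving out the highest Scrublet scores (scanpy 1.11.5) was an alternative. The T cells, gene lists and rules were chosen with earlier results of these data known. UMIs were summed over cells and given as CPM. Intervals at the 95% level are exact Clopper-Pearson (shares), exact Poisson or conditional binomial (levels and ratios) and Newcombe (difference of shares). PCR duplicates are collapsed by UMIs, but the intervals cover counting error only. Ratios used for calls add 10 CPM. Mitochondrial, ribosomal protein, haemoglobin, Xist, Y-linked and the 6 gate genes were not ranked. Genes needed 50 UMIs over both libraries, and against Ncr1-gated cells 20 UMIs over both populations together in each library. Named genes were the 12 highest and 12 lowest of each comparison and members of the lists. Cells were thinned to 1000 UMIs with a fixed seed. Positions came from GENCODE M21 (GRCm38), where all 326 named or listed genes matched. The ratio functions were tested on simulated counts. Calculations used Python 3.11.15, numpy 2.4.6, scipy 1.17.1 and pandas 2.3.3. Some listed genes are not reported here.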

Additional observations from a re-analysis of the deposited data

How the results depend on the processing

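No paired analysis was possible because each group has 1 library. The number of genes higher and lower in RES, 14 and 31 of 1617 as reported, moved with the settings, and some settings also changed the number tested. It was 34 and 58 of 2744 with 30 UMIs required, and 6 and 8 of 683 with 100. Over the same 1617 genes it was 82 and 134 at 1.5-fold, and 5 and 18 with 50 CPM added. It was 8 and 9 of 217 within the Cd4 gate. A gate of 2 UMIs gave 25 higher genes of 1680. Leaving out the deepest cells gave 19 lower of 1451, and leaving out cells with a Mki67 or Top2a UMI 12 lower of 1055. The cell cycle median was -2.59 with a Lyz2 count of 0, -0.98 with 100 UMIs required and -0.73 within the Cd8 gate, and it turned to 0.093, over 4 genes, without cells that had a Mki67 or Top2a UMI, an alternative that removes these genes by construction. The effector median was 0.48 without Tyrobp cells and 0.63 within the Cd8 gate, where the naive gene median was -0.56. Ccl5 turned to -5.29 within the Cd4 gate and Ifitm3 to 0.10 without the highest Scrublet scores (2 Ctrl and 0 RES T cells); the cause was not tested. With a Lyz2 count of 0 the T cell share was 0.746% in RES and 0.813% in Ctrl. The Cd8 gate held 15.6% of Ctrl cells thinned to 500 UMIs and 46.7% unthinned. The Cd4 gate held 0% of RES cells thinned to 500 UMIs, and unthinned 20% of RES and 26.7% of Ctrl cells. Itgam was found unthinned in 14.0% of RES and 15.6% of Ctrl T cells. Against Ncr1-gated cells, 64 genes were higher with 50 UMIs per library, where fewer genes were tested. At 1.5-fold, 291 of 9131 were higher and 735 lower. Leaving out deepest cells, H2-Aa cells, cycling cells or shared barcodes, and each gene's highest cell, were chosen after seeing the data. The 50 and 45 cells limit the precision of every share and of genes with few UMIs.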
